A study of Rattus norvegicus with 3 samples.

Results

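Acetylcholine reaches the cortex mainly from basal forebrain axons and acts there on muscarinic and nicotinic receptors, and acetylcholinesterase ends its action. The genes described are 5 muscarinic receptor genes (Chrm1, Chrm2, Chrm3, Chrm4 and Chrm5), 4 nicotinic subunit genes (Chrna4, Chrna5, Chrna7 and Chrnb2) and Ache, chosen by symbol from the deposited tables. All 10 were found, each under 1 gene ID, among 30957 genes. The tissue was the motor cortex of 3 male Sprague-Dawley rats, which the labels call the normal group, list as without treatment and number 32, 39 and 68. A time of 8 weeks is given without saying whether it is an age. There is 1 mRNA library per animal and no second group, so the data show how the genes rank within the tissue and how far their levels differ between libraries. A difference between libraries may belong to the animal, the tissue taken or the library made from it, which this design does not separate. Values are FPKM (fragment numbers scaled to the length of the gene and the size of the library) and are given as mean ± SD over the 3 animals (n = 3).

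Muscarinic receptors are G protein-coupled. Chrm1, Chrm3 and Chrm5 couple mainly to Gq proteins, which activate phospholipase C, while Chrm2 and Chrm4 couple to Gi proteins, which lower cyclic AMP and can open inwardly rectifying potassium channels. Nicotinic receptors are pentameric cation channels. In the brain, Chrna4 and Chrnb2 subunits form the main high-affinity heteromer, which can take up Chrna5 as an accessory subunit, and Chrna7 subunits form a homomeric channel with high calcium permeability.

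The libraries held an inferred 15460924 to 17670986 fragments, so that a gene at 1 FPKM rested on 15.5 to 17.7 fragments per kilobase. All 6 layer 5 genes and all 6 layer 6 genes reached 1 FPKM in each library. So did 8 of 9 striatal and 5 of 6 thalamic genes, so reaching this level does not set cortex apart. Between 12967 and 13550 of all 30957 genes reached it in each library. Lists of neighbouring tissues differed between libraries. In animals 32, 39 and 68, summed FPKM was 60.9, 704 and 8156 for 8 choroid plexus genes, 142, 122 and 266 for 9 striatal genes, and 1.42, 2.14 and 9.86 for the 7 cholinergic neuron genes found. All 8 choroid plexus genes, 8 of 9 striatal genes and 7 of 7 cholinergic neuron genes were highest in animal 68. The share of all genes highest there was not counted, so these counts have no background to be read against. Some cholinergic values were near the floor, such as Gbx1 at 0, 0 and 0.0618 FPKM. The 6 thalamic genes went the other way, with sums of 26.5, 26.3 and 19.3 and 5 of the 6 lowest in animal 68. The 7 pan-neuronal genes were all lowest there, with sums of 3740, 3281 and 2638 in the same order. Of the 16943 genes averaging 0.1 FPKM or above, 33.8% were lowest in animal 68. Animal 68 thus had the highest or the lowest sum of each of these lists. Animals 32 and 39 were not alike either, with choroid plexus sums of 60.9 and 704. Values without animal 68 are given below where they change a call.

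The 10 genes spanned from 61.6 ± 11.6 FPKM for Chrm1 to 1.76 ± 0.351 for Chrm5 (SD, n = 3), and no library had any of them below 1 FPKM. Their median was 9.16 ± 1.91 FPKM, against 4.995 ± 0.422 for the 18929 genes above 0 in any library. Chrm1 exceeded 93.8% of those genes in mean level, Chrnb2 83.3% and Chrm3 82.1%. At the other end, Chrna5 exceeded 37.4% and Chrm5 35.2%. The 10 genes were chosen with earlier results of these data known, so their place among all genes is a description.

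**Figure D1:**
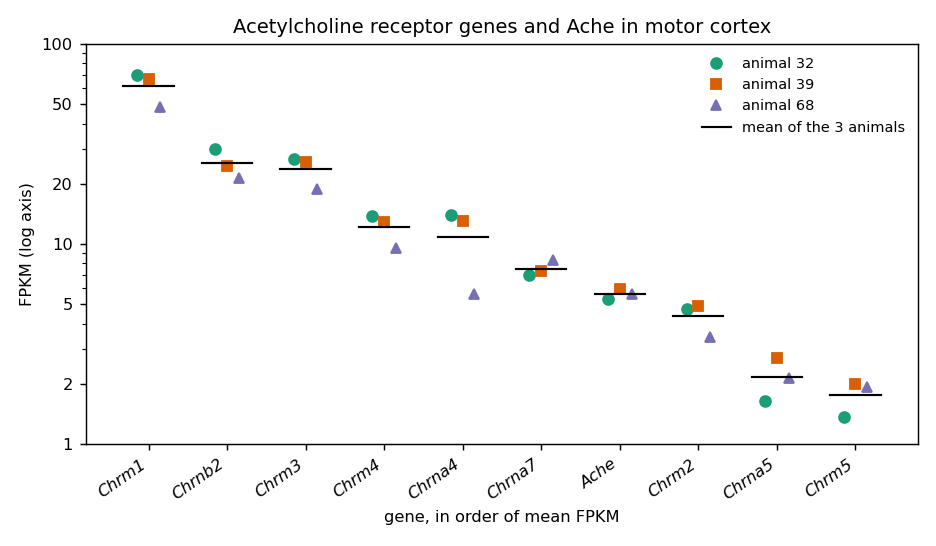
FPKM of each gene in each of the 3 animals on a log axis, with genes in order of mean level; points are single libraries and black bars are means of 3 animals. Chrm1 lies above all others at 48.3 to 69.6 FPKM, while animal 68 is lowest for Chrm1, Chrnb2, Chrm3, Chrm4, Chrna4 and Chrm2.

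Chrm1, the main muscarinic receptor of cortical pyramidal neurons, headed the family. Its level was 69.6, 66.8 and 48.3 FPKM in animals 32, 39 and 68 (chromosome 1, 224882439 to 224884205 in Rnor_6.0, plus strand). Chrm3, its Gq-coupled relative, followed with 26.6, 25.8 and 18.8 FPKM (chromosome 17, 63990599 to 63994169). The values of these genes were close in animals 32 and 39 and lower in animal 68, and the genes did not overlap. Chrm5, also Gq-coupled and best known from midbrain dopamine neurons, measured 1.36, 1.997 and 1.94 FPKM (chromosome 3, 103966451 to 104018861), with its lowest value in animal 32.

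Among the Gi-coupled receptors, Chrm4 measured 13.8, 12.9 and 9.54 FPKM (chromosome 3, 80833272 to 80841006), and Chrm2 4.71, 4.90 and 3.41 (chromosome 4, 64088900 to 64091090). Chrm4, which is abundant in striatal projection neurons, was thus lowest in the library with the highest striatal marker sum. Its locus overlaps that of Mdk, on the other strand, by 2 bases. Mdk, a growth factor gene, was at 11.98, 30.4 and 147 FPKM, opposite in order to Chrm4, and whether fragments were assigned by strand is not given in the sources used here. Chrm4 exceeded Chrm2 by 2.93, 2.64 and 2.80 times in the 3 animals.

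The proportions among 4 of the muscarinic genes hardly moved between animals. Chrm3 made up 22.9% of the summed muscarinic FPKM in each animal (22.9 ± 0.0144%), Chrm1 59.4 ± 0.516%, Chrm4 11.7 ± 0.208% and Chrm2 4.19 ± 0.152%. Chrm5 had 1.17, 1.78 and 2.36%. The ratio of Chrm1 to Chrm3 was 2.62, 2.59 and 2.57, and that of Chrm1 to Chrm4 was 5.04, 5.17 and 5.06, although Chrm1 itself was 1.44 times as high in animal 32 as in animal 68. Summed Gq-coupled receptors exceeded summed Gi-coupled ones by 5.27, 5.31 and 5.33 times. As a distance between 2 genes' log2 values, each centred on its mean over the 3 animals, Chrm1 and Chrm3 were 0.0190 apart, Chrm1 and Chrm4 0.0292, and the 6 pairs among Chrm1, Chrm2, Chrm3 and Chrm4 were all within 0.107. Within 0.1 of Chrm1 lay 345 of 13377 other genes, Chrm2, Chrm3 and Chrm4 among them. That limit is wider than the distances of Chrm3 and Chrm4, so it does not show how common those are. The parallel is a description of 3 libraries, with no test.

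**Figure D2:**
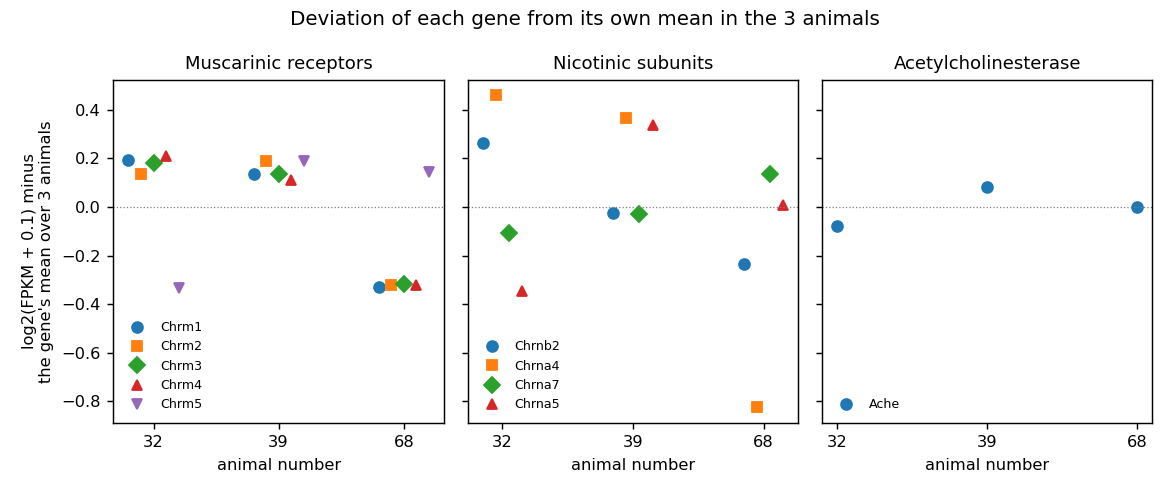
Deviation of log2(FPKM + 0.1) in each animal from the gene's mean over 3 animals, in separate panels for muscarinic, nicotinic and acetylcholinesterase genes; each point is 1 library and each symbol 1 gene. Chrm1, Chrm2, Chrm3 and Chrm4 lie at almost the same heights, while Chrna4 has the widest spread and Ache the narrowest.

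For 3 of the muscarinic genes the deposited locus is short (1767 bases for Chrm1, 2191 for Chrm2 and 3571 for Chrm3), and fragments can be estimated if the gene length used was the locus span. Chrm2 then rested on 171, 166 and 132 fragments, with a counting error of 7.65, 7.76 and 8.70%. Its exact Poisson 95% interval in animal 68 (2.854 to 4.044 FPKM) did not reach that in animal 39 (4.183 to 5.705) but touched that in animal 32 (4.035 to 5.477). Chrm1 rested on 2037, 1826 and 1509 fragments and Chrm3 on 1574, 1425 and 1186, so counting error was below 3% for both. For Chrm1 and Chrm3 the intervals in animal 68 lay apart from those in both other animals, and for Chrm2 from that in animal 39 alone. These intervals cover counting error only.

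The stretches of 250 bases before the annotated start of the 4 genes that kept their proportions, and of Chrna4, which varied most, are shown to let their promoters be compared. They come from RefSeq on the GRCr8 build, a later assembly than that of the expression tables, run 5′ to 3′ on the gene's strand, and have GC boxes (GGGCGG on either strand) in capitals. Chrm3 is on the plus strand there and on the minus strand in the deposited Rnor_6.0 tables, and positions of the 2 builds were not converted.
Chrm1, chr1:214996109-214996358, plus strand: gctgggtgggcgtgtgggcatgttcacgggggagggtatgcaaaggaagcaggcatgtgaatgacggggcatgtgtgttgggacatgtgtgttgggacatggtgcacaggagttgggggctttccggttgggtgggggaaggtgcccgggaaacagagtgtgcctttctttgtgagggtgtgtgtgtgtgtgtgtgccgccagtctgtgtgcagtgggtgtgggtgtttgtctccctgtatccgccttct
Chrm2, chr4:65982200-65982449, plus strand: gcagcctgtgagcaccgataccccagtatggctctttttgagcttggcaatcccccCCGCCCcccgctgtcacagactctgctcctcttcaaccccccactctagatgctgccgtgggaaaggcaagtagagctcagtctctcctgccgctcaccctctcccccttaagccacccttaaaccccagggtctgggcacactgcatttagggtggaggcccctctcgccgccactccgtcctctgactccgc
Chrm3, chr17:64696677-64696926, plus strand: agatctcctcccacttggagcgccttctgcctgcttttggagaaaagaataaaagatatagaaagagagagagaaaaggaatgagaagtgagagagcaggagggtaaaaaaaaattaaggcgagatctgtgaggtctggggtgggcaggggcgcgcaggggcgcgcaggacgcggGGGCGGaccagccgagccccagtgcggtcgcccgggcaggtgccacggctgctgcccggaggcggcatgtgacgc
Chrm4, chr3:98348830-98349079, plus strand: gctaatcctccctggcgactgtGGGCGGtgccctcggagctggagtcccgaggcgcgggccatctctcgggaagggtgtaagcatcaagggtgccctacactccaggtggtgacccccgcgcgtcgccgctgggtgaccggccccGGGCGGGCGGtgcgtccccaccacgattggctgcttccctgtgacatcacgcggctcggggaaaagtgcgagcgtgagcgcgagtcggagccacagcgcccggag
Chrna4, chr3:188534527-188534776, minus strand: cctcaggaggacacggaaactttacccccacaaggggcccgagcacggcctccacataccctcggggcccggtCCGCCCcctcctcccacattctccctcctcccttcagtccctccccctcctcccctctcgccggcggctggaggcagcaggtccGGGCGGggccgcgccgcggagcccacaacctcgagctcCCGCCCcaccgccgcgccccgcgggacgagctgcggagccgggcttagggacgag

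No searched motif was found in all 5 stretches. A GC box, the usual site of Sp1-type factors, was found 3 times before Chrm4 (2 of them overlapping) and 3 times before Chrna4, once before Chrm2, once before Chrm3 and not before Chrm1. It occurs in 30.5% of the 33469 promoters of the table over the same window and either strand. GC content was 58.8% for Chrm1, 62% for Chrm2, 60.0% for Chrm3, 70.4% for Chrm4 and 74.4% for Chrna4, against a median of 51.2%, and the number of CpG dinucleotides ran from 7 for Chrm1 to 28 for Chrm4. The E-box sequence CACGTG, which 5.59% of all promoters hold, was in none of the 5 windows. The same was true of the TATA box letters TATAAA on either strand, found in 12.9% of promoters. The cyclic AMP response element TGACGTCA, in 1.59% of promoters, was also in none of them. A CCAAT box, in 34.0% of all promoters on either strand, was before Chrm4 alone of the 5. Of the other members matched (9 of 10 in all, Chrm5 not among them), Chrna7 and Ache held an E-box, 70 and 229 bases before the start. Each match is of letters in a window and says nothing of binding.

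Chrnb2, the structural subunit of the main brain heteromer, was the highest nicotinic gene at 30.0, 24.6 and 21.2 FPKM (chromosome 2, 189088570 to 189096785). Its partner Chrna4, which carries the ligand-binding face, measured 13.9, 13.0 and 5.65 FPKM (chromosome 3, 176530560 to 176548064). Animals 32 and 39 were alike in Chrna4 and animal 68 was at 0.406 of animal 32, the lowest such proportion among the 10 genes. Chrnb2 in animal 68 was at 0.708 of animal 32, so the ratio of Chrnb2 to Chrna4 was 2.16, 1.89 and 3.76.

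Chrna7, the homomeric subunit, showed the opposite order of animals, at 6.96, 7.35 and 8.27 FPKM (chromosome 1, 123899657 to 124039196). Chrna4 exceeded Chrna7 by 1.996 and 1.77 times in animals 32 and 39 and was at 0.683 of it in animal 68. Chrna5, the accessory subunit known from deep-layer neurons, measured 1.64, 2.70 and 2.13 FPKM (chromosome 8, 59561817 to 59590172), lowest in animal 32. The layer 6 markers had medians of 5.93, 7.19 and 8.85 FPKM but sums of 82.0, 77.9 and 52.7, and neither has the order of Chrna5. Summed muscarinic FPKM exceeded summed FPKM of the 4 nicotinic genes by 2.21, 2.36 and 2.20 times.

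Ache, the enzyme that hydrolyses acetylcholine in the synaptic cleft, was the steadiest of the genes, at 5.31, 5.95 and 5.62 FPKM (chromosome 12, 22472358 to 22478753). Its SD on the log2 scale was 0.08, against a median of 0.24 over the 16943 genes tested, those averaging 0.1 FPKM or above. The SD of Chrna7 was 0.13, those of the other muscarinic and nicotinic genes except Chrna4 lay between 0.25 and 0.34, and that of Chrna4 was 0.72.

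In order of mean level the genes ran Chrm1, Chrnb2, Chrm3, Chrm4, Chrna4, Chrna7, Ache, Chrm2, Chrna5 and Chrm5. Of the 9 neighbouring pairs in this order, 4 had overlapping values: Chrnb2 and Chrm3 (25.3 ± 4.43 and 23.7 ± 4.30 FPKM), Chrm4 and Chrna4 (12.1 ± 2.26 and 10.8 ± 4.53), Chrna4 and Chrna7 (7.53 ± 0.670 for the latter), and Chrna5 and Chrm5 (2.16 ± 0.529 and 1.76 ± 0.351). These neighbours did not differ beyond their spread, although Chrna5 was above Chrm5 within each of the 3 animals. In the other 5 pairs the lowest value of the higher gene was above the highest of the lower gene, by little for Chrna7 over Ache and for Ache over Chrm2 (5.63 ± 0.320 and 4.34 ± 0.812). Levels of different genes depend on their gene models and on how uniquely fragments map, which the spread between animals does not cover.

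How far the other genes lay below Chrm1 was estimated with limma on the log2 ratio within each animal, fitted over all 16942 other genes at once. Chrm1 was made the reference because earlier results of these data had shown it as the highest acetylcholine receptor. That the other receptor genes lay below it was therefore known beforehand, and the p-values are no separate evidence of it. All 9 were lower at a Benjamini-Hochberg adjusted p under 0.05, in 3 of 3 animals each. The background was 90.1% of all genes tested, so the count says little of the family beyond the height of Chrm1. The nearest were Chrnb2, with a log2 ratio of -1.28 (SE 0.20; limma adjusted p = 3.61e-05), and Chrm3, with -1.37 (SE 0.20; adjusted p = 1.79e-05), and the farthest was Chrm5 with -5.05 (SE 0.34). Chrm4, Chrna4, Chrna7, Ache, Chrm2 and Chrna5 lay at -2.34, -2.58, -3.001, -3.41, -3.79 and -4.78. Because 0.1 was added to each FPKM, ratios of low genes are understated.

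Against Chrna4, 2 of the 3 other nicotinic genes differed, where 60.6% of all genes did. Chrnb2 was higher by 1.304 on the log2 scale (SE 0.54; limma adjusted p = 0.0275) and Chrna5 had a log2 ratio of -2.20 (SE 0.64; adjusted p = 0.00138), each in 3 of 3 animals. For Chrna7 the log2 ratio was -0.42 with a 95% interval from -1.56 to 0.72 (limma adjusted p = 0.547), an interval that holds differences in either direction. Without animal 68 the ratio of Chrna7 to Chrna4 was -0.90 (limma adjusted p = 0.000662), and without animal 32 or animal 39 neither Chrnb2 nor Chrna5 passed. The spread of Chrna4 enters every ratio of this fit, which gave all genes of a level the same SE.

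**Figure D3:**
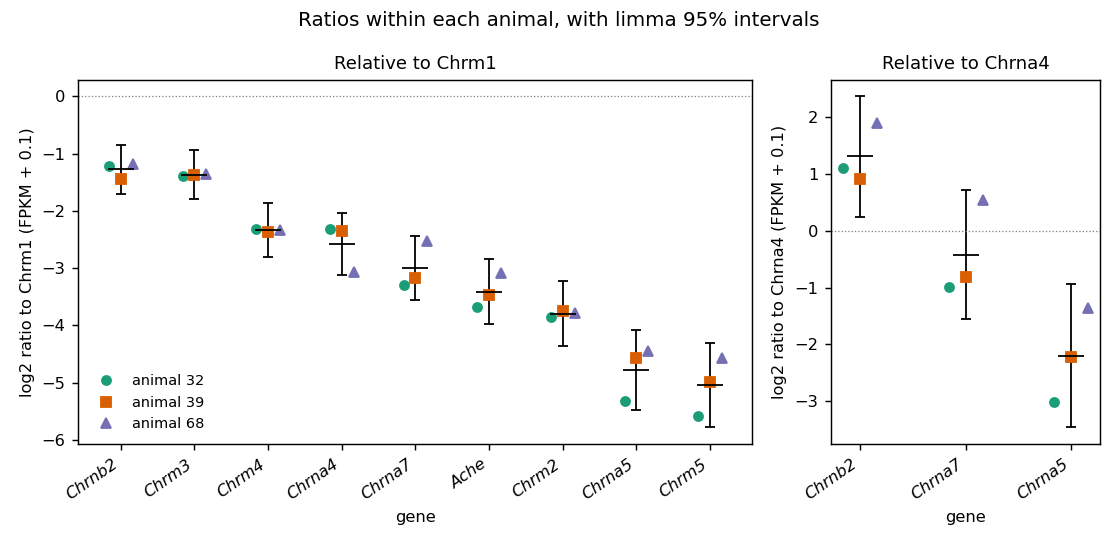
Log2 ratio of FPKM plus 0.1 of each gene to Chrm1 (left) and of the nicotinic genes to Chrna4 (right), with points for the 3 animals and a black bar with whiskers for the limma estimate and its 95% interval. All intervals on the left lie below 0, and on the right that of Chrna7 crosses 0 with animal 68 on the other side.

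Variation between animals was tested over all 16943 genes as each gene's variance against the variance limma expects at its level. No gene passed at an adjusted p under 0.05 (0% of genes), and 795 had an unadjusted p under 0.05 (4.69%). Among the 10 genes, Chrna4 was the one with an unadjusted p under 0.05 (0.0392; limma adjusted p = 0.924). A count of 0 here does not show that levels were alike between animals.

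Animal 68 had the lowest of the 3 values for 6 of the 10 genes, Chrm1, Chrm2, Chrm3, Chrm4, Chrna4 and Chrnb2, where 33.8% of all genes tested were lowest there. The median ratio of animal 68 to animal 32 was 0.716 over the 10 genes and 1.06 over all genes tested. Lists of neuronal markers did not all have one order of animals. The median of the pan-neuronal list was 427, 385 and 338 FPKM and that of the GABAergic list 61.1, 49.8 and 44.9, both lowest in animal 68. The striatal list went the other way, with medians of 2.67, 3.86 and 18.2 FPKM. The layer 5 list was mixed. Its medians were 30.2, 38.6 and 47.1 FPKM and its sums 337, 383 and 389, but 2 of its 6 genes were highest in animal 68 and 2 lowest. The glutamatergic list had medians of 521, 537 and 495 FPKM, and 4 of its 5 genes found were lowest in animal 68. Relative to the pan-neuronal median, Chrm1 stood at 16.3, 17.4 and 14.3%, Chrm3 at 6.23, 6.71 and 5.56%, Chrna4 at 3.25, 3.38 and 1.67%, Chrna7 at 1.63, 1.91 and 2.44% and Ache at 1.24, 1.55 and 1.66%. The same 6 genes were lowest in animal 68 after scaling to the pan-neuronal median. That median was the level of 1 gene, Syt1, in each library. Syt1 in animal 68 was at 0.792 of animal 32, and the list ran from 0.568 (Snap25) to 0.871 (Stmn2). Chrm1 was at 0.694 and Chrm3 at 0.706, within that range, so the outcome depends on the divisor, and other divisors from the list were not tried. Glial lists were highest there, with medians of 188, 283 and 470 FPKM for oligodendrocyte genes and 75.7, 105 and 190 for astrocyte genes, and the median of the upper-layer list was 72.8, 43.0 and 21.0. The part of these markers in the differences was not tested, and in bulk tissue fewer cells of a type and less RNA per cell cannot be told apart.

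**Figure D4:**
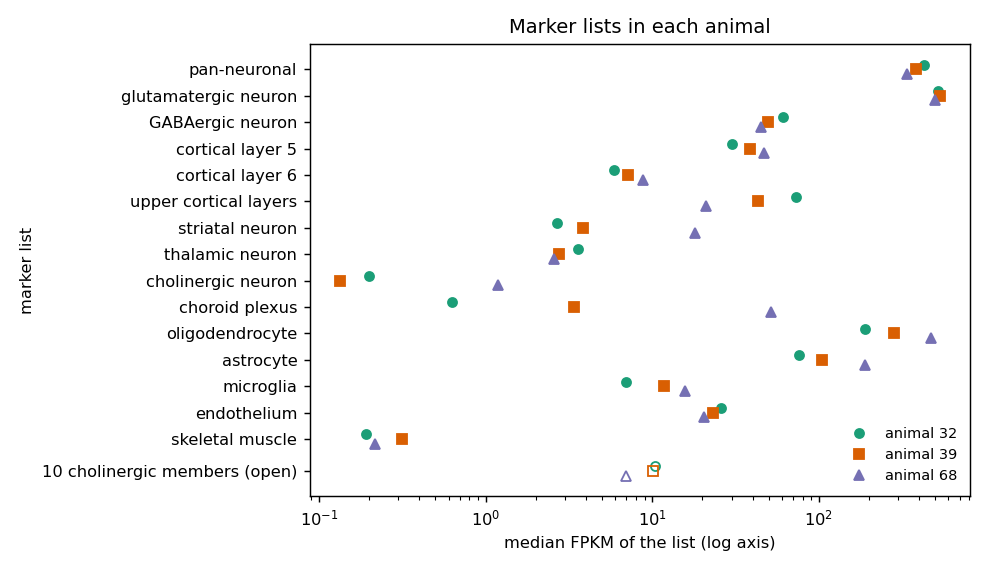
Median FPKM of each marker list in each animal on a log axis, with the median of the 10 cholinergic genes as open symbols in the bottom row. The choroid plexus, striatal, cholinergic neuron, layer 5, layer 6, oligodendrocyte, astrocyte and microglia lists are highest in animal 68. The pan-neuronal, glutamatergic, GABAergic, upper-layer, thalamic and endothelial lists and the 10 genes are lowest there.

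The genes for making acetylcholine and taking up choline were below 0.5 FPKM in animals 32 and 39 and higher in animal 68. Chat, the synthesising enzyme, measured 0.2002, 0.181 and 0.981 FPKM, and Slc5a7, the choline transporter of cholinergic terminals, 0.395, 0.134 and 1.86. Both were highest in animal 68, as was Ngfr (0.204, 0.199 and 1.46) from the cholinergic neuron list. Lhx8 and Isl1, transcription factors of forebrain cholinergic neurons, were listed at 0 in animals 32 and 39 and at 1.19 and 0.692 FPKM in animal 68. Ache, at 5.31 to 5.95 FPKM, did not share that pattern. Ngfr, Lhx8 and Isl1 were named after their values were seen.

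Of the cholinesterase relatives, Bche, which encodes butyrylcholinesterase, measured 1.46, 1.38 and 1.85 FPKM and lay below Ache in every animal. Prima1, the membrane anchor of brain acetylcholinesterase, measured 5.12, 7.85 and 16.3 FPKM, and Colq, the collagen tail of the muscle enzyme, 0.221, 0.520 and 0.538. The anchor was therefore 3.18 times as high in animal 68 as in animal 32, while the enzyme differed by 1.06 times. Prima1 had an unadjusted p of 0.0302 in the variation test (limma adjusted p = 0.924).

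The 7 other neuronal nicotinic subunits were all below 1 FPKM in at least 1 animal. Chrna2 was highest at 0.757 ± 0.188 FPKM, Chrna3 measured 1.17, 0.418 and 0.116, Chrnb3 0.139 ± 0.161 and Chrna9 was listed at 0 in every library. None of the 4 muscle subunits found reached 1 FPKM, with Chrne at 0.480 ± 0.151, Chrnb1 at 0.169 ± 0.198, Chrna1 at 0.0977 ± 0.144 and Chrnd listed at 0. The 4 nicotinic members held most of the nicotinic FPKM, with a sum of 45.8 ± 7.77. The 7 others had sums of 2.13, 1.58 and 1.39 in animals 32, 39 and 68. Members were chosen with earlier results of these data known, so this difference may partly rest on that choice.

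Chaperones and modulators of nicotinic receptors were all detected, as the 6 genes of that list reached 1 FPKM in each library. Their lowest value was that of Lypd6b, at 1.51 FPKM in animal 68. Between 12967 and 13550 of all 30957 genes reached 1 FPKM in each library. Lynx1, a Ly6 protein that binds and restrains nicotinic receptors, measured 110, 93.4 and 70.0 FPKM, its relative Ly6h 65.4, 73.4 and 60.1, and the assembly chaperone Tmem35a 41.0, 39.5 and 47.9. In this list 4 of 6 genes were lowest in animal 68, where 33.8% of all genes tested were lowest. Among the 4 were Lynx1, Ly6h and the chaperone Ric3 (17.6, 15.01 and 14.4 FPKM, named after its values were seen). The other 2, with Tmem35a among them, were highest in animal 68.

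Effectors of both muscarinic branches were present throughout, since all 8 Gq-branch and all 8 Gi-branch genes reached 1 FPKM in each library. Between 12967 and 13550 of all 30957 genes did so in each library. On the Gq side, the G protein gene Gnaq measured 58.5, 61.5 and 70.7 FPKM, and the phospholipase gene Plcb1 58.2, 52.4 and 43.0. On the Gi side, Gnao1 measured 195, 188 and 173 FPKM, Gnai2 68.1, 77.8 and 93.8, and Rgs4, which shortens G protein signals, 293, 160 and 56.4. Rgs4 spread more widely than any of the 10 genes (SD 1.201 on the log2 scale; unadjusted p = 0.00562, limma adjusted p = 0.924). Of the 33 pathway genes in the limma variation test, 0 passed after adjustment (0% of all genes) and 3 had an unadjusted p under 0.05, where 4.69% of all genes did. Beside Prima1 and Rgs4 this was the potassium channel gene Kcnj9 (59.8, 38.7 and 20.4 FPKM), named for that p. Since no gene of the whole profile passed this test, the 0 does not show that the levels of these genes were alike between animals.

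**Figure D5:**
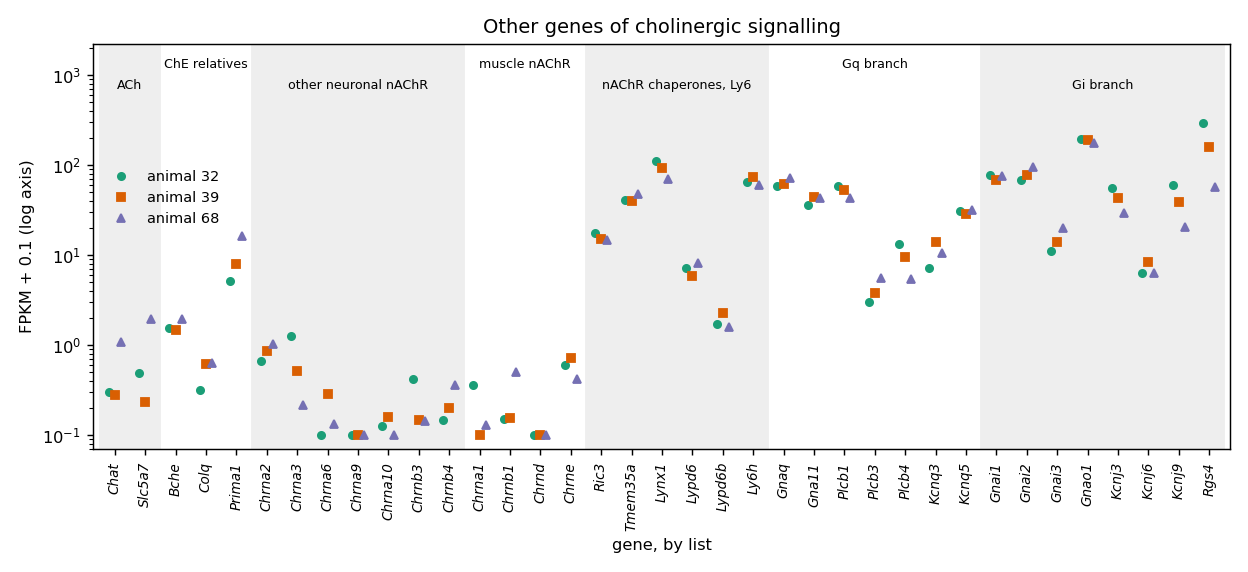
FPKM plus 0.1 of the other cholinergic genes in each animal on a log axis, grouped by list, with 1 gene of the Gq branch not drawn; a point at 0.1 is a gene listed at 0. Chaperones and G protein effectors lie between 1.51 and 293 FPKM, and most other nicotinic subunits lie below 1 FPKM.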

How the data were processed

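One mRNA library from each of 3 rats was used. Per the labels and design text, the authors counted and normalized fragments of each gene and computed the deposited FPKM with a Perl script. The submitters' processing notes list HISAT2 2.0.4, StringTie 1.3.0 and Rnor_6.0, with no role; annotation release, read length and strand setting were not found in them.

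Symbols were matched in any case, or by an older RefSeq symbol (Tmem35a, Ccn2); Slc18a3 and Chrng were among those not matched. Depth was inferred from loci of up to 400 bases, where 82.0 to 86.6% of values came within 0.02 of whole fragments; PCR copies are not independent molecules. Values were analysed as log2(FPKM + 0.1), for genes averaging 0.1 FPKM or above, with limma 3.58.1 (R 4.3.3): a two-sided moderated one-sample test of ratios within animals, and variance against a trend prior, with Benjamini-Hochberg adjustment over all genes tested. An exact sign-flip test allows no p below 0.25 here. The fits were also run on simulated data, with outcomes not given here.

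Named genes are the 10 members, up to 3 of the highest mean and those at 0 in each pathway list, the top genes of 4 marker lists, and the 2 nearest in pattern to the 3 members of largest SD; values of 2 such genes are left out; others, such as Mdk and genes neighbouring members, were named after their values were seen. Members, lists and reference genes were chosen with earlier results of these data known. Alternatives were pseudocount, filter, prior, scaling and leaving out each animal; the count of genes lowest in animal 68 and separately moderated variances were added after the data were seen.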

Additional observations from a re-analysis of the deposited data

How the results depend on the processing

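The count of 9 genes lower than Chrm1, a reference chosen for its height, held under every alternative run. These were pseudocount 1 or 0.01, no filter or a mean of 1 FPKM, no trend and quantile normalization. The others were variances of the gene and the reference moderated separately, and each animal left out. For nicotinic genes differing from Chrna4 the count was 2 under the same alternatives except those leaving out an animal, where it ranged from 0 to 3: 0 when animal 32 or animal 39 was omitted and 3 when animal 68 was. With variances moderated separately, the limma-based adjusted p was 0.00886 for Chrnb2, 0.000578 for Chrna5 and 0.252 for Chrna7. In the limma variation test 0 genes passed under any alternative run (460 to 895 at an unadjusted p under 0.05), with the lowest adjusted p between 0.212 (scaling to the pan-neuronal median) and 0.954. Chrna4 was above an unadjusted p of 0.05 without the trend, with any animal left out and after scaling to the pan-neuronal median. Scaling to that median, the level of Syt1 in each library, used log2 divisors of 0.16 for animal 32 and -0.18 for animal 68. There, 15.4% of genes were lowest in animal 68, and 6 of the 10 still were. After quantile normalization 8 were, with Chrna5 and Ache added, and 42.9% of all genes. No member level moved by more than its SD under any scaling or with an animal left out. No paired analysis was possible because there is 1 group. At 1 FPKM about 15.5 to 17.7 fragments per kilobase limit the low genes, such as Chrna5, Chrm5 and Chat. FPKM cannot be tested as counts, and levels of genes with short loci (Chrm1, Chrm2 and Chrm3) depend on those gene models.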

Other observations

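Chrna5 lies in a cluster of nicotinic genes on chromosome 8, whose levels are given with no test. Chrna3 (59593728 to 59607198 in Rnor_6.0, minus strand) lies 3556 bases beyond Chrna5, and Chrnb4 (59609659 to 59629329, minus strand) follows. Chrna5 measured 2.16 ± 0.529 FPKM, Chrna3 0.568 ± 0.544 and Chrnb4 0.137 ± 0.113 (SD, n = 3). The values of Chrna3 and Chrnb4 overlapped, and in animal 68 Chrnb4 (0.264 FPKM) was above Chrna3 (0.116). Chrna3 had its highest value in animal 32 (1.17 FPKM), where Chrna5 had its lowest (1.64). On the other side, the proteasome gene Psma4, 21900 bases away, measured 69.3 ± 5.19 FPKM and Hykk 0.323 ± 0.195.

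Col20a1, the nearest gene to Chrna4 at 4542 bases on chromosome 3, was at 1.97, 3.02 and 3.33 FPKM in the animals in which Chrna4 measured 13.9, 13.0 and 5.65.

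By the distance of centred log2 values over the 3 animals, the genes nearest to Chrna4 among 13377 averaging 1 FPKM or above were Dok5 (distance 0.0169; 12.4, 11.5 and 4.94 FPKM) and Tcf19 (0.0213). Of those genes 16 lay within 0.1 of Chrna4, against 49 for Chrna5, 171 for Chrm5 and 1073 for Ache. Nearest to Chrna5 were Kmt2a (0.0156) and RGD1560831 (0.0255), and nearest to Chrm5 were SNORA48 (0.0184) and Tymp (0.0189). With 3 libraries such likeness is a description.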
